A study of Mus musculus with 18 samples.

Results

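The CpGs described here are those whose methylation was low in wild-type oocytes of secondary follicles (SF) and high in wild-type oocytes of early antral follicles (EAF), called late sites below. A CpG was eligible when it lay on an autosome, had fewer than 15 CpG positions within 100 bp on either side (itself included), and had at least 5 reads in at least 2 SF and 2 EAF wild-type oocytes. Of 20359 eligible CpGs, 340 (1.67%) had a mean below 40% in SF wild type and at least 70% in EAF wild type. The deposited libraries held 655582 CpGs with at least 5 reads in any oocyte. The choice rests on the wild-type values of both stages, so those values describe the sites and support nothing. Knockout oocytes played no part in the choice.

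Each library holds the bisulfite-converted MspI fragments of 1 mouse oocyte (reduced representation bisulfite sequencing), in which a methylated C stays C and an unmethylated C reads as T. The labels name Sall4fl/fl;Zp3-Cre and Sall4fl/fl females, which are taken here as the source of the Sall4 ko oocytes (KO, 5 at SF and 2 at EAF) and the wild-type oocytes (WT, 7 at SF and 4 at EAF). Zp3-Cre is active in growing oocytes, so deletion starts only once growth has begun. On this reading all groups share the floxed allele, and the labels list P12.5 and P17.5 for every sample without tying an age to a stage. No animal is named for any oocyte, so a group counts as 1 sample, no test was made, and each SD or range describes oocytes.

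Mouse oocytes receive most of their DNA methylation de novo while they grow, at a time when they do not divide. DNMT3A with its cofactor DNMT3L sets the marks, mainly across transcribed regions that carry H3K36me3, and different sequences reach their final level at different times of growth. Maternal imprints are laid down in the same period. Sall4 encodes a zinc finger transcription factor of germ cells and early embryos.

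The shallowest library was SF WT replicate 3, with 464501 reads summed over CpGs, and the deepest SF KO replicate 2, with 6518646. Every SF knockout library was deeper than every SF wild-type library, at 3688890 to 6518646 against 464501 to 3665846. The number of late sites with at least 5 reads was 33 to 237 per oocyte in SF wild type, 133 to 219 in SF knockout, 158 to 247 in EAF wild type, and 64 and 180 in the 2 EAF knockout oocytes. The median depth of a covered late site lay between 7 and 25 reads. SF KO replicate 1 stood apart. At CpGs below 40% in both wild-type stages it had a methylation level of 28.5%, against 9.41% to 12.2% in the other SF knockout oocytes. Group values of SF knockout are given with and without it.

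The late sites were scattered. Joined where gaps were at most 200 bp, they formed 225 loci, of which 160 held 1 site, 36 held 2 and 29 held 3 or more, with at most 6. Sites alone in their locus made up 47.1% of late sites, against 16.6% of the 916 eligible CpGs that stood at 70% or more in both wild-type stages, called early sites. Late sites also had fewer CpGs around them, with a median of 8 within 100 bp against 10 for early sites and 9 for all eligible CpGs. The sparsest surroundings, 1 to 4 CpGs, held 71 late sites (20.9%), 9.83% of early sites and 12.0% of eligible CpGs. Each autosome had late sites, from 4 on chromosome 17 to 41 on chromosome 1. Eligible CpGs were unevenly spread, so that late sites were 4.55% of them on chromosome 1 and 0.597% of them on chromosome 10. Chromosomes 10 to 14 held the most eligible CpGs of any, for a reason not known here. Without them 251 of 9012 eligible CpGs (2.79%) were late.

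Of the 1993 eligible CpGs that reached 70% in EAF wild type, 17.1% were late, 37.0% had stood between 40% and 70% at the SF stage (737 middle sites) and 46.0% were early. The opposite change, at least 70% in SF and below 40% in EAF wild type, was seen at 67 CpGs, or 0.329% of eligible CpGs. Late sites were thus 5.07 times as many as these reverse sites, which is a description only, since the wild-type values define both classes. At reverse sites chosen without either oocyte of a pair, the EAF oocyte was lower in 11 of 25 wild-type pairs and higher in 14. Those pairs shared only 1 to 17 sites. At 258 of the 340 late sites (75.9%), every covered EAF wild-type oocyte lay above every covered SF wild-type oocyte. This held for 5.1% of eligible CpGs, and the choice largely fixes it.

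Few oocytes decided the membership of many sites. There were 185 sites covered in exactly 2 SF wild-type oocytes, 250 covered in exactly 2 EAF wild-type oocytes, and 156 for which both held. Only 61 sites were covered in at least 3 oocytes of each wild-type group. Site means had a median of 15.9% in SF wild type and 91.1% in EAF wild type. At 123 sites every covered SF wild-type oocyte was at 0%, at 138 sites every covered EAF wild-type oocyte was at 100%, and 73 sites met both. Near the SF limit, 108 late sites lay at 30% to 40% and 148 CpGs just outside lay at 40% to 50%. Near the EAF limit, 91 late sites lay at 70% to 80% and 238 CpGs just outside lay at 60% to 70%.

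Within SF wild type, the oocytes differed in their level at these sites. The level of an oocyte, the mean over its covered late sites, was 18.4% ± 8.42 (SD, n = 7 oocytes), with 6.55% in replicate 3 at the low end, a median of 17.3% and 31.5% in replicate 7 at the high end. These values are held down by the choice. When each oocyte was scored at sites chosen from the other 10 wild-type oocytes, the level was 41.4% ± 11.5 (SD, n = 7), from 25.1% in replicate 3 through a median of 36.2% to 57.2% in replicate 7. Replicate 3 was scored on 19 sites only. Replicates 3 and 7 were also the lowest and the highest at other CpGs, so this order is not particular to late sites: they had 65.4% and 83.7% at early sites and 44.4% and 66.7% at middle sites, scored in the same way. Scored in the same way, EAF wild-type oocytes had 72.8%, 59.1%, 63.8% and 46.5% in replicates 1 to 4 (60.6% ± 10.97, SD), in place of 88.02% ± 4.11 with the oocyte in the choice. The 2 stages then overlapped. EAF replicate 4 lay below 3 of the SF wild-type oocytes, which had 49.3%, 51.6% and 57.2%.

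**Figure D1:**
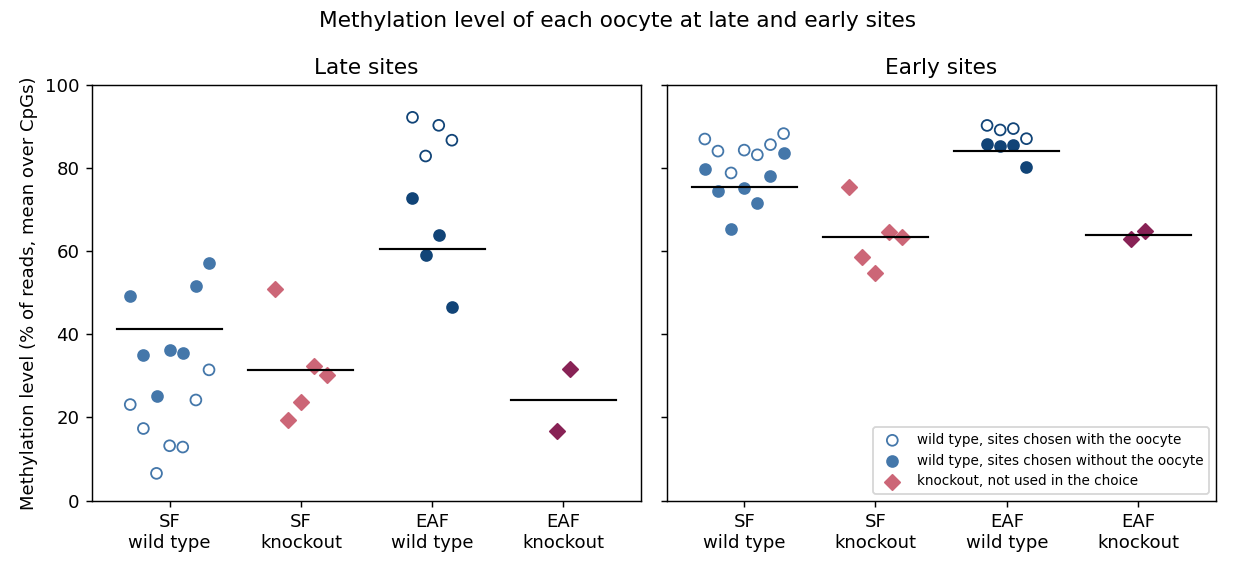
Methylation level (% of reads, mean over CpGs) of each oocyte at late sites (left) and early sites (right), by group. Open circles are wild-type oocytes at sites chosen with them, filled circles the same oocytes at sites chosen without them, diamonds are knockout oocytes, and each bar is the mean of the filled symbols of a group. At late sites the EAF knockout oocytes (16.8% and 31.7%) lie below every filled EAF wild-type circle (46.5% to 72.8%). Filled circles and diamonds rest on different sets of sites, so their distance is not a difference at the same CpGs.

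Single sites in single SF wild-type oocytes were mostly at one extreme. On average 71.1% of the late sites covered in an SF wild-type oocyte stood at 20% or below, 21.7% between 20% and 80%, and 7.29% at 80% or above. The choice holds the SF wild-type mean of each late site low, which raises the first share and lowers the last. These shares were not taken at sites chosen without the oocyte, so they only describe the chosen sites. Replicate 7 had the most sites at 80% or above (10 of 61, 16.4%, exact 95% binomial interval 8.15% to 28.1%) and replicate 5 the fewest (3 of 173, 1.73%, 0.359% to 4.98%). These intervals cover counting error only, because PCR copies are not separate molecules and neighbouring sites share reads. In SF wild type, 161 sites stood at 20% or below in every covered oocyte, a count that the choice also raises. At 55 sites (16.2%) an oocyte at 80% or above was found beside another at 20% or below, so that the same CpG was methylated in some SF wild-type oocytes and unmethylated in others. The same was true of 1.64% of early sites, whose SF wild-type mean the choice holds at 70% or more. The share over all eligible CpGs was not taken, so whether such sites are commoner among late sites was not tested. The median site spanned 16.7 points between its lowest and highest covered SF wild-type oocyte.

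**Figure D2:**
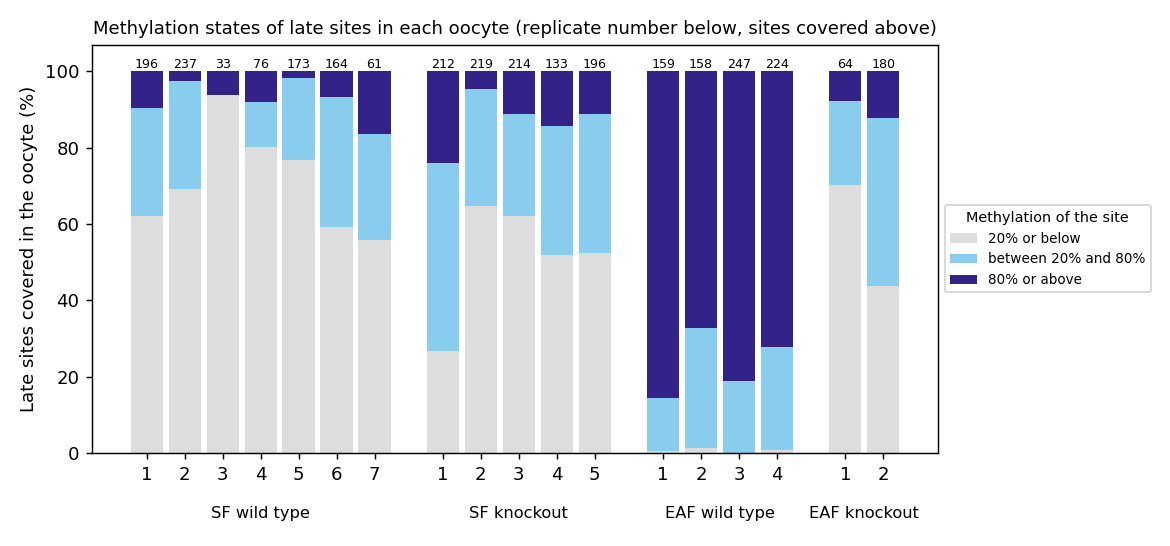
Share of covered late sites (%) at 20% or below, between 20% and 80%, and at 80% or above, with a stacked bar for each oocyte, its replicate number below and its number of covered late sites above. Sites at 80% or above make up 67.1% to 85.5% of the EAF wild-type bars and 24.1% or less of each knockout bar. The wild-type bars are at sites chosen with those oocytes, which raises this share in EAF and lowers it in SF wild type.

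Oocytes without Sall4 had low methylation at late sites at both stages. SF knockout oocytes had 51.02%, 19.5%, 23.8%, 32.4% and 30.3% in replicates 1 to 5, a mean of 31.4% ± 12.1 (SD), or 26.5% ± 5.94 without replicate 1. EAF knockout oocytes had 16.8% and 31.7%, a mean of 24.3% ± 10.55 (SD). Both EAF knockout values lay below the lowest EAF wild-type oocyte scored at sites chosen without it, 46.5%. That oocyte, EAF WT replicate 4, was scored at a different set of sites than the knockout oocytes. At sites shared with it and chosen without it, the EAF knockout oocytes had 34.5% and 36.8%, where it had 43.5% and 43.3%. The SF knockout values overlapped those of SF wild type, which ran from 25.1% to 57.2%, again at different sets of sites.

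Site by site, the EAF knockout mean was below 40% at 141 of 200 covered late sites (70.5%). Replicate 1 covered 64 of the 200 sites and replicate 2 covered 180, and only 44 were covered in both. At most sites this mean is therefore the value of 1 oocyte, mainly replicate 2. The same held for 80.8% of all eligible CpGs covered in EAF knockout, and for 31.1% of those at 70% or more in EAF wild type, the late sites among them. Among early sites it held for 19.7%, and among middle sites for 31.0%. The EAF knockout lay 50 points or more under EAF wild type at 122 of 200 late sites (61%) and 19.4% of early sites. For this count the share was 3.62% of eligible CpGs and 26.8% of those at 70% or more in EAF wild type. The EAF wild-type side of that difference was fixed by the choice. A few late sites were methylated without Sall4: 23 of 200 (11.5%) reached 70% in EAF knockout, against 5.26% of eligible CpGs and 51.01% of early sites. SF knockout lay 50 points or more under EAF wild type at 195 of 319 covered late sites (61.1%). This held for 4.28% of eligible CpGs, 33.1% of those at 70% or more in EAF wild type and 27.1% of early sites. In SF knockout 216 of these 319 (67.7%) were below 40% and 24 (7.52%) at 70% or more. Those rules were met by 81.6% and 3.41% of eligible CpGs, and by 35.8% and 24.6% of those at 70% or more in EAF wild type. Without SF KO replicate 1 the 3 counts were 210, 233 and 19 of 308 late sites (68.2%, 75.6% and 6.17%), against 4.88%, 86.4% and 2.891% of eligible CpGs.

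To compare genotypes and stages at the same CpGs, oocytes were also taken in pairs, at the late sites covered in both and chosen without either wild-type oocyte of the pair. EAF wild type exceeded SF wild type by 20.1 points ± 10.2 (SD over 4 EAF oocytes), at 60.6% against 40.5%, with the EAF oocyte higher in 27 of 28 pairs. In the remaining pair, EAF replicate 2 was 33.3 points below SF replicate 7. Pairs with at least 20 shared sites gave 14.4 points ± 10.6, and 20 of 21 were higher. The difference rested on few oocytes. It was 6.95 points without EAF WT replicate 1 and 10.3 without EAF WT replicate 3, with sites chosen again each time. At sites with 1 to 4 CpGs within 100 bp it was 4.25 points ± 19.98. With at least 3 covered oocytes of each wild-type group it was 13.2 points ± 9.60. The corresponding stage difference was 11.03 points at middle and 6.69 at early sites.

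The EAF knockout was lower than EAF wild type in all 8 pairs. It had 34.6% where wild type had 55.9%, a difference of -21.4 points ± 10.4 (SD over 4 wild-type oocytes) with pairs from -35.9 to -6.53. EAF KO replicate 1 averaged -23.9 points and EAF KO replicate 2 -18.8. The smallest gaps, -8.99 and -6.53, were those to EAF WT replicate 4, and without EAF WT replicate 1 the difference was -13.1. A minimum of 10 reads per CpG gave -11.4 points ± 13.8, and fewer than 5 CpG positions within 100 bp gave -35.9 points ± 9.55. At middle and early sites it was -15.9 points ± 3.28 and -14.4 points ± 1.99, also in all 8 pairs. The larger mean at late sites lies within the spread between EAF wild-type oocytes, so the genotype difference was not shown to be greater there. These pairs share oocytes and are not independent.

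Against SF wild type the mean knockout differences at late sites were smaller. SF knockout minus SF wild type was -8.10 points ± 9.26 (SD over 7 wild-type oocytes), lower in 26 of 35 pairs, and -12.5 points without SF KO replicate 1. Pairs with at least 20 shared sites, which leave out SF WT replicate 3, gave -11.0 points ± 5.52 (SD over 6 wild-type oocytes), lower in 24 of 30. By oocyte the mean difference was +9.51 points for SF KO replicate 1, -22.0 for replicate 2, -17.3 for replicate 3, -0.234 for replicate 4 and -10.52 for replicate 5. It was -1.44 points without EAF WT replicate 4, -3.85 without EAF WT replicate 3 and -4.55 without SF WT replicate 1, each of which changed the sites chosen, and -4.63 without SF KO replicate 2. At sites with at least 3 covered oocytes of each wild-type group it was -2.64 points ± 16.3, and with fewer than 5 CpG positions within 100 bp -28.5 points ± 15.6. EAF knockout oocytes were also below SF wild type, the earlier stage, by 11.3 points (-11.3 ± 5.01, SD over 7 wild-type oocytes), lower in 11 of 14 pairs. This was -18.7 points for EAF KO replicate 1 and -3.92 points for replicate 2. At other CpGs the mean differences were of like size. SF knockout minus SF wild type was -8.96 points at early and -7.98 at middle sites, and EAF knockout minus SF wild type was -8.98 points ± 4.47 at early sites (lower in 14 of 14 pairs) and -9.00 at middle sites (13 of 14).

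**Figure D3:**
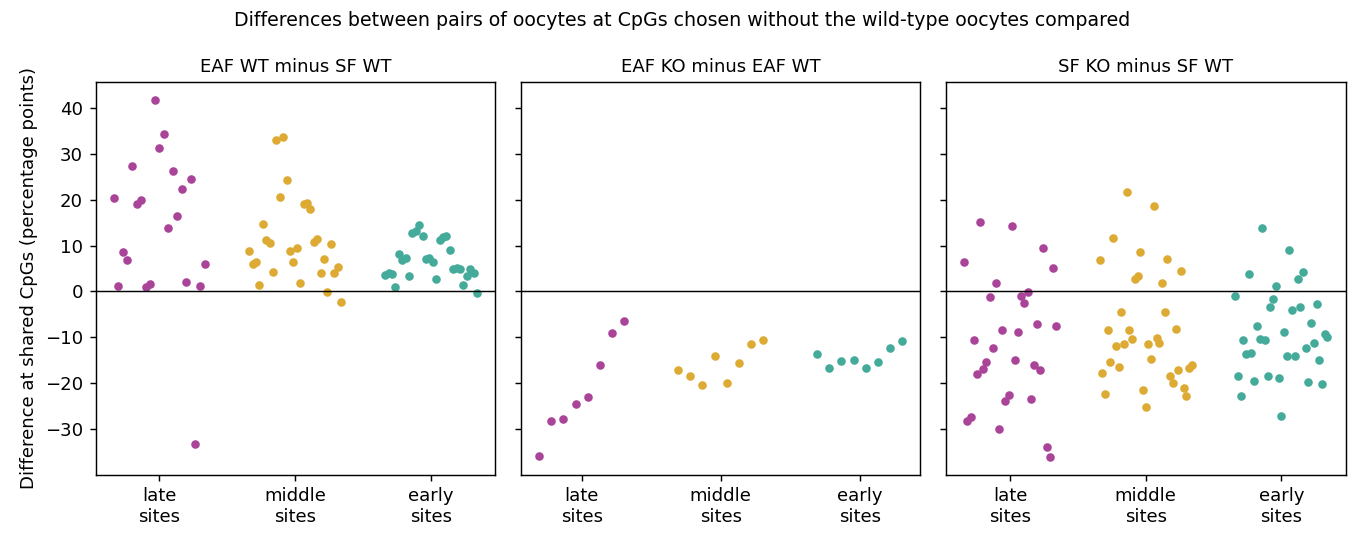
Difference in methylation (percentage points) between 2 oocytes at CpGs covered in both and chosen without the wild-type oocytes of the pair, with 1 point for each pair sharing at least 20 sites, at late, middle and early sites. All 8 EAF knockout points lie below 0 in each class, and 20 of 21 late-site stage points lie above 0.

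Between the 2 knockout stages no rise was seen. The EAF minus SF knockout difference at late sites was -7.11 points (24.3% against 31.4%), less than the spread between oocytes of either group. Over the other settings it ran from -14.7 points, with at least 10 reads per CpG, to 2.49. Leaving out SF KO replicate 1 gave -2.20 points, leaving out EAF KO replicate 1 gave 0.350, and summing the reads over the oocytes of each group gave 2.49. At the 195 late sites covered in both knockout groups the mean difference was -5.34 points and the median -0.109, with 98 sites lower (50.3%), 55 higher (28.2%) and 42 equal in EAF. EAF knockout was lower by 50 points or more at 14 of them (7.18%) and higher by as much at 7 (3.59%). Over the 16721 eligible CpGs covered in both groups the mean difference was -1.90 points, with 59.02% lower and 32.4% higher. There 0.939% were lower by 50 points or more and 1.51% higher by as much. Without SF KO replicate 1 the mean difference turned to 0.845 points over 191 late sites, with 74 lower (38.7%) and 72 higher (37.7%). Of these sites 12 (6.28%) were lower and 11 (5.76%) higher by 50 points or more. Over eligible CpGs the mean difference was then 2.34 points, with 41.0% lower and 48.7% higher. There 0.772% were lower and 1.86% higher by 50 points or more.

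Within each knockout oocyte, late sites were less methylated than early sites. The gap was 32.0 points ± 5.27 (SD, n = 5) in SF knockout, from 24.4 in replicate 1 to 39.1 in replicate 2 (33.9 ± 3.60 without replicate 1), and 33.2 and 46.1 points in the 2 EAF knockout oocytes. Early sites stood at 63.4% ± 7.79 in SF knockout and 63.9% ± 1.45 in EAF knockout, with middle sites at 48.5% and 49.8%. Without SF KO replicate 1 the SF knockout means were 60.4% at early and 44.4% at middle sites. In each knockout oocyte of both stages the order was late, middle, early, which is the order the choice fixed in SF wild type. The gap in EAF wild type, at sites chosen without the oocyte, was 23.6 points ± 8.65 (SD, n = 4), from 12.95 to 33.7, and in SF wild type 34.1 points ± 6.15 (SD, n = 7). The lower EAF knockout value, 33.2, lay under the highest EAF wild-type value, 33.7, so these groups overlapped. Knockout and wild-type gaps rest on different sets of sites, so this is not a comparison at the same CpGs.

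Grouped by the level reached in SF wild type, CpGs at 70% or more in EAF wild type had higher knockout levels in the higher bins, up to 90%. Sites at 0% to 10% in SF wild type (155 late sites) had 17.7% in SF knockout and 13.5% in EAF knockout. Those at 30% to 40% (108 late sites) had 39.7% and 32.5%, and those just past the limit, at 40% to 50%, had 43.9% and 43.6%. The values went on to 53.4% and 55.6% at 60% to 70%, and 69.7% and 67.0% at 80% to 90%. They were 58.5% and 58.3% where SF wild type was at 90% to 100%. Without SF KO replicate 1 the SF knockout values were 14.2%, 33.8%, 39.5%, 49.3%, 66.5% and 57.04% in these 6 bins. The ranges over oocytes of the bins on either side of 40% overlapped in both knockout groups. Near the EAF limit, late sites at 70% to 80% in EAF wild type had 35.4% in SF knockout and 28.6% in EAF knockout, while CpGs just outside, at 60% to 70%, had 36.3% and 33.1%. Leaving out SF KO replicate 1, the SF knockout values were 29.99% and 31.2%.

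**Figure D4:**
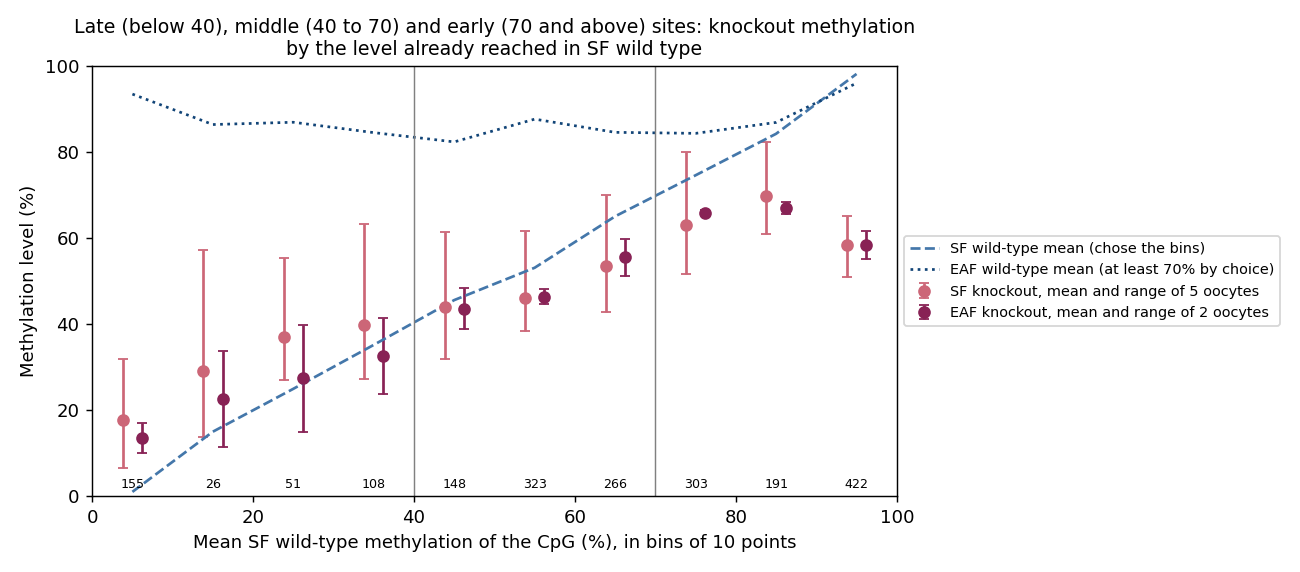
Knockout methylation (%) of CpGs at 70% or more in EAF wild type, by their mean SF wild-type methylation (%) in bins of 10 points. Points are group means, bars the range over oocytes, lines the wild-type means that made the choice, and the number of CpGs in each bin stands along the bottom. EAF knockout is at 13.5% in the lowest bin and 67.0% in the bin of 80% to 90%.

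Late sites in sparse surroundings were the least methylated in the knockout. With 1 to 4 CpGs within 100 bp, late sites had 14.6% ± 8.66 in SF knockout and 12.9% ± 1.69 in EAF knockout. With 5 to 9 they had 33.6% ± 14.2 and 24.9% ± 10.4, and with 10 to 14 they had 35.1% ± 11.9 and 28.9% ± 13.9 (SD, n = 5 and n = 2 oocytes). Early sites showed the same order, with 36.1% and 46.8% at 1 to 4 CpGs, 63.3% and 61.3% at 5 to 9, and 65.3% and 66.3% at 10 to 14. Wild-type levels at early sites, where the choice rests on them, ran the other way. They were 95.3% in SF and 97.4% in EAF at 1 to 4 CpGs, and 81.0% and 86.1% at 10 to 14. The 123 sites at 0% in every covered SF wild-type oocyte had 14.5% in SF knockout and 12.3% in EAF knockout, against 36.2% and 27.9% at the other 217. The 61 sites covered in at least 3 oocytes of each wild-type group had 39.3% and 38.3%. With SF KO replicate 1 left out, SF knockout had 11.1%, 27.9% and 30.4% in the 3 density classes of late sites. In those of early sites it had 33.8%, 61.6% and 61.5%, so the 2 denser classes were level. It then had 10.8% and 30.7% at late sites at 0% and above in SF wild type, and 32.96% at the 61.

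Knockout oocytes also disagreed with each other at single late sites. Of 254 late sites covered in at least 2 SF knockout oocytes, 67 (26.4%) had an oocyte at 80% or above and another at 20% or below, against 14.8% of early sites. Without replicate 1 this was 39 of 217 late sites (18.0%) and 10.9% of early sites. Only 44 late sites, in 32 loci, were covered in both EAF knockout oocytes. There replicate 1 averaged 20.2% and replicate 2 averaged 37.3%. Both were at 20% or below at 10 sites, both at 80% or above at 1 site, and at opposite extremes at 3 sites, and they differed by 50 points or more at 8. Replicate 1 had 942232 summed reads and replicate 2 had 4161741, and the part of depth in this gap was not tested. None of these counts was set against all eligible CpGs, so they do not show that disagreement is particular to late sites.

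The CpGs beside late sites had a like pattern. Other CpGs within 50 bp, not members themselves, had 38.5% in SF wild type and 63.3% in EAF wild type, with 35.7% in SF knockout and 31.4% in EAF knockout. At 201 to 1000 bp the wild-type stages were closer, at 41.6% and 47.6%, and the knockouts had 34.8% and 31.6%. At 1001 to 10000 bp the 4 values were 30.8%, 43.7%, 25.3% and 18.6%. Beside early sites, CpGs within 50 bp had 58.2% in SF wild type, 69.3% in EAF wild type, 48.2% in SF knockout and 49.6% in EAF knockout. Without SF KO replicate 1 the SF knockout values were 31.1%, 29.98% and 22.2% at these distances from late sites and 43.8% within 50 bp of early sites. Beside CpGs below 40% in both wild-type stages, those within 50 bp had 26.2% in SF wild type, 33.6% in EAF wild type and 24.8% in EAF knockout. At 201 to 1000 bp from them these values were 21.2%, 33.1% and 18.9%. A higher EAF wild-type level with a lower EAF knockout level was thus not particular to the surroundings of late sites. Neighbours within 50 bp often lie on the same reads as the site that was chosen, so they are not independent of the choice.

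Of the 225 loci, 30 had a site covered in at least 2 SF knockout and both EAF knockout oocytes, and the 8 with the most sites are given one by one. All coordinates are of mouse build mm9, and the genes and sequences at these positions were not analysed here. Each value is the mean over the sites of the locus covered in that oocyte. The largest, at chr4:120928096-120928387, held 6 sites (locus B) and was covered in all 18 oocytes. SF wild-type oocytes there ran from 0% in replicate 3, on 39 reads, through a median of 34.7% to 43.9% in replicate 1. EAF wild-type oocytes had 88%, 85.7%, 80.3% and 81.2%. SF knockout oocytes had 63.8%, 16.5%, 17.7%, 67.1% and 45.6%, and EAF knockout oocytes had 42.7% and 37.1%. No knockout oocyte reached the EAF wild-type range, and SF knockout replicates 1, 4 and 5 exceeded every SF wild-type oocyte. A second locus of 4 sites, at chr4:120927688-120927773, lies 322 bp away and was singled out after its values were seen. SF knockout oocytes there had 64.8%, 15%, 11.1%, 65.6% and 42.4%, so that the same 2 oocytes were high and the same 2 low at both. EAF KO replicate 2, with 247 reads, had 20.7%.

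Locus F, with 4 sites at chr13:104190886-104190969, had 17.8%, 0%, 0% and 42.4% in SF WT replicates 1, 2, 5 and 6, and 100% and 78.5% in EAF WT replicates 2 and 3. The EAF knockout oocytes had 1.47% on 65 reads and 38.8% on 99 reads. The 2 covered SF knockout oocytes stood at opposite ends, replicate 1 at 91.6% on 96 reads and replicate 5 at 0% on 25 reads. Locus D, with 3 sites at chr8:95115549-95115597, had 18.5% and 55.6% in SF WT replicates 1 and 6, and 83.3% and 75% in EAF WT replicates 3 and 4. Its SF knockout values, 75%, 43.1%, 51.5%, 33.3% and 72.98%, were mostly intermediate, and its EAF knockout values were 28.6% and 47.9%. Locus E, with 3 sites at chr11:92555895-92555985, was even among SF oocytes. Its SF wild-type values ran from 16.7% to 42.9% over 6 oocytes and its SF knockout values from 15.6% to 35.04% over 5. EAF WT replicates 1 and 3 had 85.7% and 100%, EAF WT replicate 4 had 42.2%, and the EAF knockout oocytes had 10.8% and 42.3%. At this locus EAF KO replicate 2 and EAF WT replicate 4 were level.

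The other 4 loci held 2 sites each. Locus A, at chr1:6907136-6907217, had 8.33% and 47.7% in SF WT replicates 2 and 6, 92.9% and 86.4% in EAF WT replicates 1 and 2, and 0% on 11 reads and 50% on 36 reads in the EAF knockout oocytes. Its SF knockout replicates 1, 2, 3 and 5 had 38.8%, 46.4%, 8.91% and 27.9%. Locus C, at chr5:29682508-29682549, was at 0% in each of the 4 covered SF wild-type oocytes, on 10 to 97 reads. It had 50% and 100% in EAF WT replicates 1 and 4, and 0% and 18.4% in the EAF knockout oocytes. SF knockout replicate 1 had 68.8% there, while replicates 2, 3 and 4 had 8.82%, 0% and 8.67%.

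The last 2 lie on chromosome 15. Locus G, at chr15:29527642-29527669, had 41.7% and 0% in SF WT replicates 2 and 5, and its EAF wild-type oocytes had 81.2%, 73.1%, 73.3% and 90%. Its EAF knockout oocytes had 33.3% and 55.7%, and SF knockout replicates 1 to 4 had 81.9%, 41.7%, 18.8% and 20%. Locus H, at chr15:30024203-30024250, had 26.5%, 48.4% and 11.9% in SF WT replicates 2, 5 and 6, and 57.1% and 84.6% in EAF WT replicates 1 and 4. Its EAF knockout oocytes had 0% on 12 reads and 42.3% on 26 reads, and its SF knockout oocytes had 80.6%, 35%, 46.9%, 45.5% and 38.5%. At all loci but E the EAF knockout values lay below those of every covered EAF wild-type oocyte. The choice sets the wild-type side of this order. SF KO replicate 1 was the highest covered SF knockout oocyte at loci C, D, F, G and H.

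**Figure D5:**
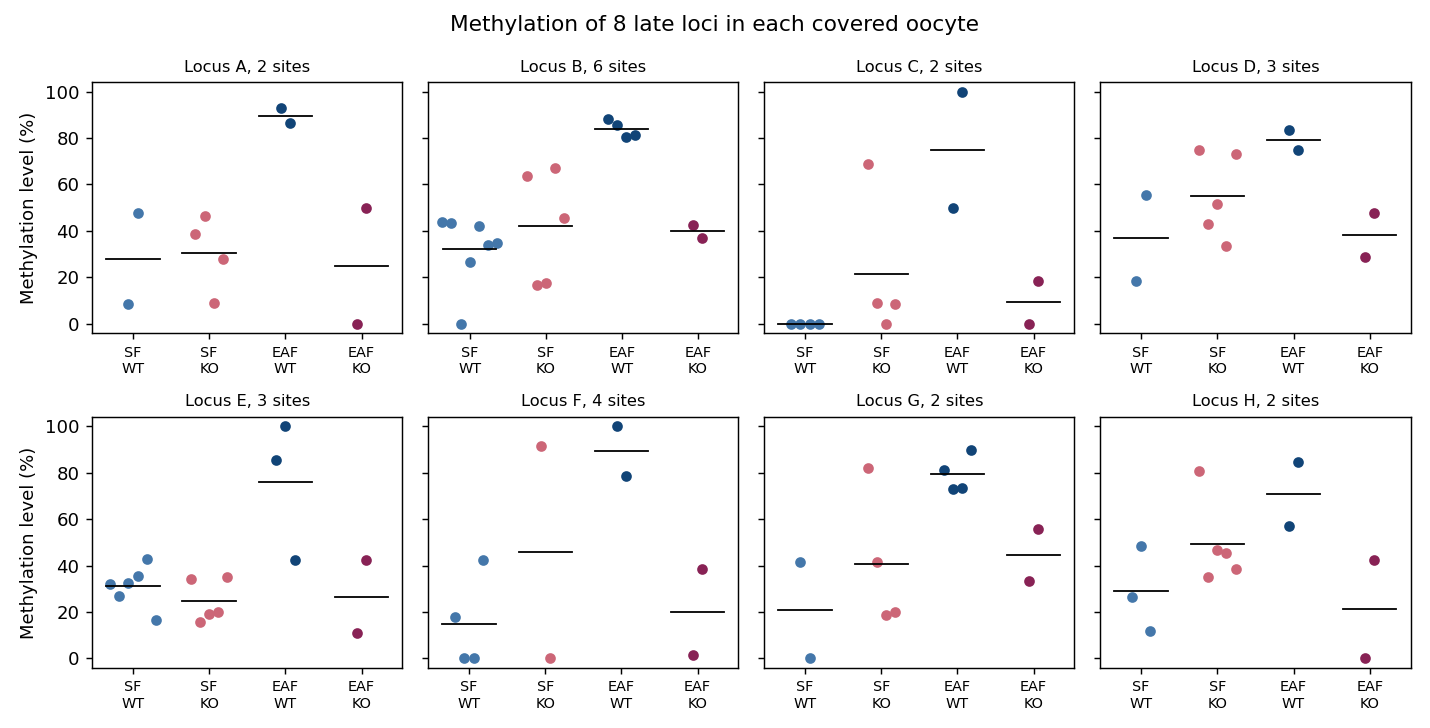
Methylation level (%) of 8 late loci in each covered oocyte, by group, with a point for each oocyte and a bar at the group mean. Letters run in genome order: A on chromosome 1, B on 4, C on 5, D on 8, E on 11, F on 13, G and H on 15. The EAF knockout points range from 0% to 55.7%.

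Of all late loci, 12 held 4 or more sites, 57 sites in all, and 6 of these loci were covered in EAF knockout. At chr5:36673578-36673649, with 4 sites, SF WT replicates 1 and 5, SF KO replicate 2 and EAF KO replicate 2 were all at 0%, on 63 to 129 reads, while EAF WT replicates 3 and 4 had 100% and 79.4%. At chr16:36931713-36931777, with 4 sites, SF WT replicates 1, 2 and 5 were at 0% on 165, 299 and 51 reads, SF KO replicate 3 had 13.6%, and EAF WT replicates 3 and 4 had 100% and 97.5%. Others varied widely within SF wild type. The 5 sites at chr1:116454371-116454475 had 1.63%, 33.8%, 60%, 0.159% and 0.513% in SF WT replicates 1, 2, 4, 5 and 6. The EAF wild-type replicates 3 and 4 had 86.7% and 71.4% there, SF knockout oocytes had 8.77%, 16.4%, 34.7%, 0.876% and 26.9%, and EAF KO replicate 2 had 0% on 74 reads. The 6 sites at chr1:118259822-118259926 had 70.6%, 10%, 6.25% and 45.2% in SF WT replicates 1, 5, 6 and 7, and 55.6%, 95% and 92.9% in EAF WT replicates 2, 3 and 4. SF knockout oocytes had 75.95%, 18.5%, 7.14%, 69.8% and 64.2% at those sites, so that replicates 1, 4 and 5 stood with the highest SF wild-type oocyte and replicates 2 and 3 with the lowest. These 4 loci were singled out after their values were seen.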

How the data were processed

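Single-oocyte DNA was cut with MspI, bisulfite converted and amplified, per the labels' protocols. BSMAP 2.89 and mouse build mm9 are named in the submitters' processing notes. The authors' filters: not given in the sources used here. The deposited tables give for a CpG the total read count and the methylated read count over both strands, per the file headers. The deposited methylation ratio is a fraction from 0 to 1, the methylated over the total count, made by the authors.

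At least 5 reads in an oocyte were required for a covered CpG. CpG density was the number of the 1207879 positions listed in any library that lay within 100 bp. A level is the mean over covered CpGs, each weighted equally, then over oocytes. Wild-type oocytes were scored again at sites chosen without them. Members, lists and named loci were chosen with earlier results of these data known. The paired comparison of oocytes at shared sites, its minimum of 20 sites and the analyses without chromosomes 10 to 14 and, for single sites, bins, density classes and neighbours, without SF KO replicate 1 were chosen after the data were seen. Named were the 8 loci with the most sites among those covered in at least 2 SF knockout and both EAF knockout oocytes. Naming the 3 lowest and 3 highest in EAF knockout among such loci with at least 3 sites added none, since only 4 qualified. The design is descriptive, because each library is 1 oocyte and no animal is named. The choice of sites was tested on simulated data. There all oocytes of a group had the same true level, so that test cannot show how the choice fares where oocytes differ. Tools were pandas 2.3.3, numpy 2.4.6, scipy 1.17.1 and matplotlib 3.10.9 under Python 3.11.15.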

Additional observations from a re-analysis of the deposited data

Results flagged for a closer look

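In 24 comparisons of oocytes within a group of 4 to 10, 2 oocytes lay further from the rest than Dixon's 95% limit allows, and chance alone flags about 1 group in 20. SF KO replicate 1 had a methylation level of 28.5% at the 13203 CpGs below 40% in both wild-type stages, while the next SF knockout oocyte had 12.2% and the lowest 9.41%. EAF WT replicate 4 had 80.2% at early sites, scored without it in the choice, while the next had 85.2% and the highest 85.8%. At late sites, scored in the same way, no oocyte stood apart by this measure.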

How the results depend on the processing

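Over 11 results and 9 settings, 97 values were computed, of which 82 kept their direction and moved by less than the spread between oocytes. Leaving out oocytes gave 149 values, of which 145 did so. In both counts the number of late sites was judged by its fold change instead. The EAF minus SF knockout difference was judged by the SD of the SF knockout level. For 2 results that spread exceeds the difference itself. These are SF knockout minus SF wild type (-8.10 points, SD 9.26) and EAF minus SF knockout (-7.11 points, SD 12.1). A change of the first to -1.44 points therefore counted as kept, so for these results the counts do not show stability. The number of late sites followed the limits. It was 68 with at least 10 reads per CpG and 780 with at least 3, 71 with fewer than 5 CpG positions within 100 bp, 61 with at least 3 covered oocytes of each wild-type group and 188 with limits of 30% and 80%. It ran from 199 (without EAF WT replicate 3) to 335 when an oocyte was left out, and was 220 without SF WT replicate 2. With fewer than 5 positions, SF knockout had 14.6%, EAF knockout 12.9%, and the early minus late gap in SF knockout was 21.6 points. In the paired comparisons, chosen after the data were seen, that setting gave 4.25 points for the wild-type stage difference, -35.9 for EAF knockout minus wild type and -28.5 for SF knockout minus wild type. The first of these genotype differences was -11.4 with at least 10 reads per CpG, and the second -2.64 with at least 3 covered oocytes of each wild-type group. Leaving out an oocyte gave 6.95 to 23.7 points for the stage difference. With at least 3 covered oocytes of each wild-type group, EAF knockout had 38.3%. The early minus late gap in SF knockout was 39.0 points with limits of 30% and 80%, and 25.0 without chromosomes 10 to 14, a setting chosen after the data were seen. The EAF minus SF knockout difference of -7.11 points turned to 2.49 with reads summed over oocytes, and leaving out an oocyte gave -14.6 to 0.350. The cause of these changes was not tested. No paired analysis was possible because the labels tie no replicate number to a shared animal or day, and the pairs of oocytes above share CpGs, not a source. Depth limits the sites: most rest on 2 oocytes of a wild-type group.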
